A study of Homo sapiens with 9 samples.

Results

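A set of 9 genes known as transcriptional targets of p53 was followed here through HEK293-derived cells that overexpress a circular or a linear RNA of the SMN genes: CDKN1A, MDM2, RPRM, SESN1, BTG2, FAS, BBC3, TP53I3 and ZMAT3. The list names the genes by symbol, and they were found by Ensembl ID among the 60648 genes of the count table. All 9 were found, and all 9 of 9 passed the expression filter that left 19473 genes to be tested. RPRM was put on the list knowing that it moved in opposite directions in the derived lines, so its opposite signs are a description and its p-values are not independent of that choice.

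TC4-2A cells carry an inducible insertion that yields a circular RNA of early exons of the SMN genes. TL4-2A cells carry one that yields a linear transcript with the same exons. T-REx cells, the parental line without an insertion, were the control. Each line gave 3 libraries of total RNA depleted of ribosomal RNA. All 9 libraries came from cells kept on doxycycline (Dox) for 96 h, so Dox was present on both sides of every comparison. No library came from cells without Dox, so induction of the insertions cannot be told apart from other differences between the lines. The authors list zeocin, blasticidin and hygromycin as antibiotics of the culture, without saying which line received which. HEK293 cells descend from human embryonic kidney and carry early genes of adenovirus, whose products bind p53 and block much of its activity. The sources used here say neither whether each derived line is a single clone nor whether replicate libraries were made from separate cultures. The p-values therefore reflect the spread of these libraries alone, which may be technical.

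Total counts per library ran from 16561680 to 21491977, TMM factors from 0.9906 to 1.014, and no library stood apart. The 5 markers set for HEK293 cells (NEFL, NEFM, INA, VIM and PAX2) were tested and detected. Their summed level was 628 to 653 CPM in TC4-2A, 680 to 696 CPM in TL4-2A and 825 to 856 CPM in T-REx cells. By the test given below, 3 of 5 fell in TC4-2A and 2 of 5 in TL4-2A cells. Over all genes tested 28.8% were called in TC4-2A cells, 14.6% as lower, and 44.3% in TL4-2A cells, 22.5% as lower. The 7 markers of other cell types together held 0.05 to 0.43 CPM in TC4-2A, 0.267 to 0.305 CPM in TL4-2A and 0.185 to 0.522 CPM in T-REx libraries, too few counts to be tested. CPM are counts scaled to a common library size, with TMM as the factor that evens out libraries of different composition.

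p53 is a transcription factor that is kept at a low level by MDM2, a ubiquitin ligase that p53 itself induces, and that accumulates when DNA is damaged or ribosome assembly fails. It then raises genes that stop the cell cycle, aid repair and change metabolism, and genes that start apoptosis. Among the genes followed here MDM2 is the feedback inhibitor. CDKN1A, RPRM and BTG2 act in growth arrest. FAS, BBC3 and TP53I3 act in cell death, SESN1 in the response to stress and nutrients, and ZMAT3 in the processing and stability of RNA.

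p53 binds DNA at 2 adjoining copies of a 10-base motif, each made of 3 purines, a 4-base core of C, A or T, A or T, and G, and 3 pyrimidines. This 20-base consensus reads the same on both strands. It was searched without a spacer in the 5000 bases on either side of the start of each gene's canonical transcript, with the C and G of both cores fixed and at most 2 mismatches elsewhere. Of the 9 genes, 5 held a match in this window of 10001 bases, and so did 7.71% of the windows of all 19433 genes tested that could be placed. These matches are shown because the genes were chosen as p53 targets, with the cores in capitals, read 5′ to 3′ along the gene's strand from GRCh38:
CDKN1A: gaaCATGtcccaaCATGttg
BTG2: acgCATGttcaggCATGcat
MDM2: ggtCAAGttcagaCACGttc
FAS: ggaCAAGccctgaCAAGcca
ZMAT3: aaaCAAGtccagaCATGcct

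The match of CDKN1A lies at chr6:36676449-36676468, 2265 bases before the start of the canonical transcript. That of BTG2 is at chr1:203303642-203303661, 1877 bases before the start. Those of MDM2 (chr12:68808923-68808942) and FAS (chr10:88991309-88991328) are in introns, 746 and 511 bases after the start. That of ZMAT3 (chr3:179070188-179070207, minus strand) is also intronic, 1602 bases after the start, and is the only 1 of the 5 with 0 mismatches, which 0.175% of all windows held. The other 4 matches have 2 mismatches each. RPRM, SESN1, BBC3 and TP53I3 had no match of this kind in their windows, which says only that these letters are not there. A match is a description of the sequence, and binding of p53 was not measured.

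Compared to T-REx cells, 5 of the 9 genes fell in TC4-2A cells, 0 rose, and 4 were not called at an adjusted p under 0.05 from edgeR's quasi-likelihood test. Over all genes tested, 28.8% were called in this comparison, 14.2% as higher and 14.6% as lower. In TL4-2A cells 6 of the 9 fell, 1 rose and 2 were not called, where 44.3% of all genes tested were called, 21.9% as higher and 22.5% as lower. For the 0 that rose in TC4-2A cells, the count was also 0 at an unadjusted p under 0.05 and 0 with DESeq2. The median log2 fold change of the 9 genes was -0.20 for TC4-2A minus T-REx and -0.31 for TL4-2A minus T-REx cells, beside 0.00 and 0.00 over all genes tested. Without RPRM, 4 of the 8 genes fell in TC4-2A cells and 6 of the 8 in TL4-2A cells, and the medians were -0.18 and -0.35. The libraries of TC4-2A and T-REx cells did not overlap for 5 of the 9 genes, all lower in TC4-2A cells, where 40.3% of all genes did not overlap and 20.3% were lower. Those of TL4-2A and T-REx cells did not overlap for 7 of the 9, 5 lower and 2 higher in TL4-2A cells, where 51.6% of all genes did not, 26.0% being lower and 25.5% higher. Both lines were compared with the same 3 T-REx libraries, so the values of the lines are given side by side and are not independent. In bulk RNA, fewer cells that express a gene and less RNA of it per cell cannot be told apart.

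**Figure D1:**
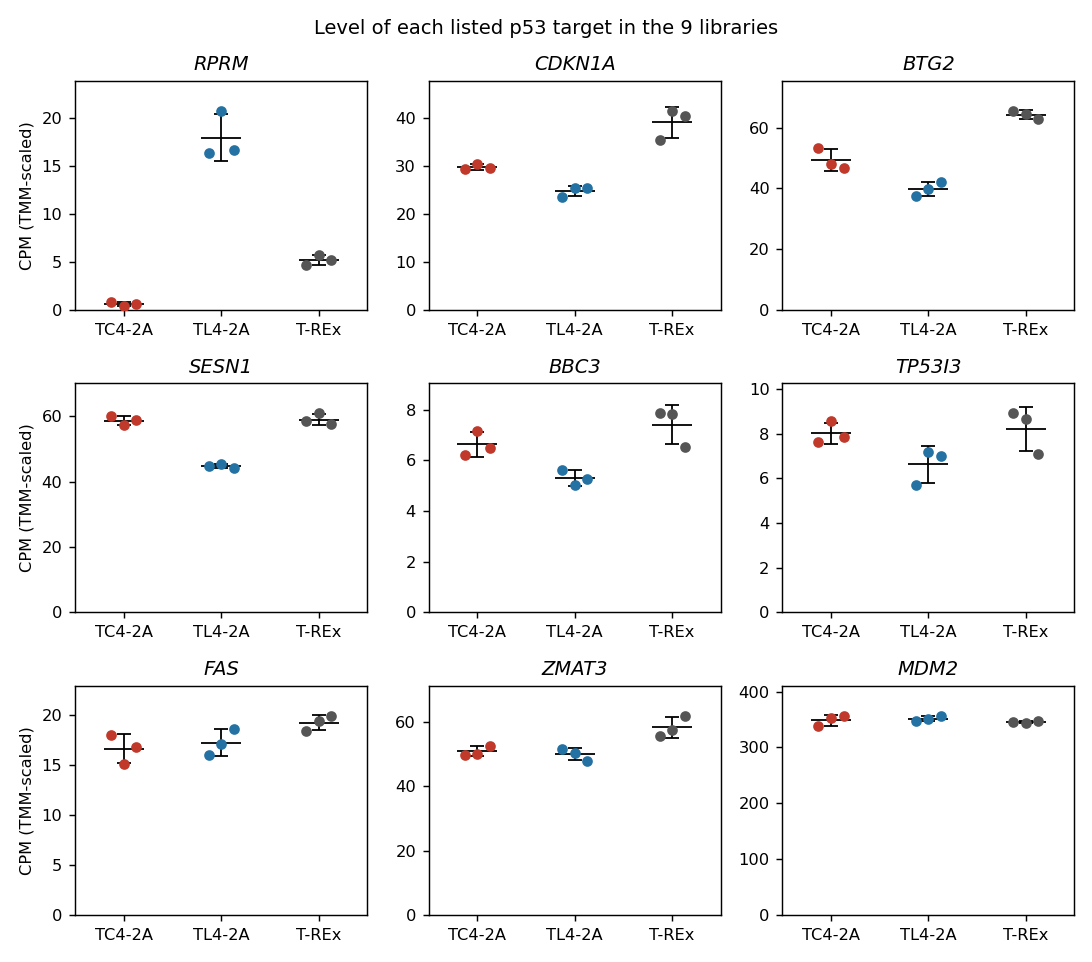
Level of each of the 9 genes in CPM (vertical axes from 0, a different scale in each panel) in the 3 libraries of each line (TC4-2A left, TL4-2A middle, T-REx right), with the mean and SD as bars (n = 3). RPRM is near 0 in TC4-2A cells and highest in TL4-2A cells, while CDKN1A and BTG2 are highest in T-REx cells and MDM2 lies between 338 and 357 CPM in all 9 libraries.

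RPRM encodes Reprimo, a small glycoprotein whose overexpression holds cells at the transition from G2 to mitosis. It is a gene of 1425 bases on the minus strand of chr2:153477338-153478762. It had 16, 8 and 12 counts in the TC4-2A libraries, 270, 388 and 274 in the TL4-2A libraries and 88, 124 and 100 in the T-REx libraries. Scaled by library size these are 0.799, 0.380 and 0.645 CPM in TC4-2A, 16.3, 20.8 and 16.7 CPM in TL4-2A and 4.67, 5.75 and 5.22 CPM in T-REx cells. No library of any line overlapped with those of another line. The log2 fold change was -3.10 in TC4-2A cells (standard error 0.22, edgeR adjusted p = 2.84e-14) and 1.78 in TL4-2A cells (standard error 0.11, edgeR adjusted p = 9.69e-16). The increase in TL4-2A cells is 3.44-fold, with a 95% interval of 1.55 to 2.01 on the log2 scale. Compared directly, TC4-2A cells were below TL4-2A cells by a log2 fold change of -4.88 (standard error 0.17, edgeR adjusted p = 2.56e-23). Among the 9 genes RPRM had the widest differences in all 3 comparisons, and the other 8 stayed between -0.70 and 0.39 on the log2 scale. Per kilobase of its canonical transcript RPRM stood at 0.427 CPM in TC4-2A, 12.6 CPM in TL4-2A and 3.66 CPM in T-REx cells, where it was the least abundant of the 9. A long noncoding RNA annotated over the whole gene on the same strand had 0 counts in the 9 libraries.

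The genes around RPRM on chromosome 2 differed between the lines. The 10 genes tested on the side of lower coordinates, 714.9 to 1969 kb away, rose in TL4-2A cells in 10 of 10 cases, with a median log2 fold change of 0.56 and a range of 0.29 to 0.90. On the other side, from 393.2 to 4247 kb away, 2 of 10 rose in TL4-2A cells, 0 fell, and the median was 0.37. Over all genes tested 44.3% were called in TL4-2A cells, 21.9% as higher and 22.5% as lower. Over both sides 0 of 20 fell by edgeR, 0 at an unadjusted p under 0.05 and 0 with DESeq2, which called 10 of the 20 as higher. In TC4-2A cells the 20 neighbours had a median of -0.01, with 2 higher and 3 lower, and 3 in all were called without T-REx replicate 2. The share of all genes called in TC4-2A cells was 28.8%, with 14.2% higher and 14.6% lower. The nearest gene tested on the side of lower coordinates, ARL6IP6, was at -0.08 in TC4-2A cells (edgeR adjusted p = 0.229) and rose by 0.29 in TL4-2A cells (edgeR adjusted p = 8.23e-06). The nearest on the other side, GALNT13, rose in TC4-2A cells by 1.05 (edgeR adjusted p = 0.00055) and had -0.53 in TL4-2A cells (edgeR adjusted p = 0.154). The increase of RPRM in TL4-2A cells was larger than that of any of its 20 neighbours, whose highest value was 0.90, and its decrease in TC4-2A cells was below their lowest value of -1.62. RPRM was listed for its opposite movement in the lines, so this contrast is a description only. The part of the neighbourhood in the RPRM values was not tested.

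**Figure D2:**
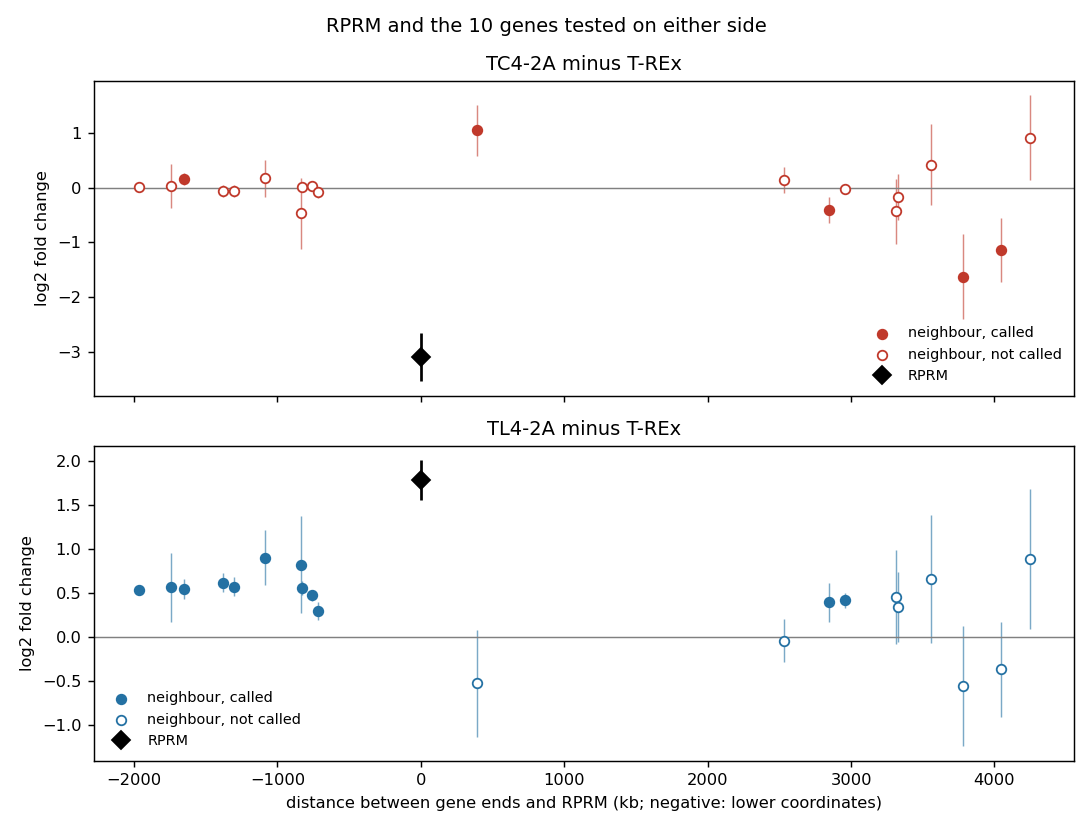
Log2 fold changes of RPRM (black diamond) and of the 10 genes tested on either side of it, against the distance between genes in kb, for TC4-2A (upper panel) and TL4-2A cells (lower panel) minus T-REx cells. Vertical lines are 95% intervals and filled points passed the test: all 10 neighbours at lower coordinates lie above 0 in TL4-2A cells, between 0.29 and 0.90, with RPRM at 1.78.

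CDKN1A encodes p21, the inhibitor of cyclin-dependent kinases through which p53 halts the cycle before S phase. It lies on the plus strand at chr6:36676460-36687337. It had 29.3, 30.4 and 29.7 CPM in TC4-2A, 23.6, 25.4 and 25.4 CPM in TL4-2A and 35.4, 41.5 and 40.5 CPM in T-REx cells. Both derived lines were below T-REx cells in every library. The log2 fold change was -0.39 in TC4-2A (standard error 0.05, edgeR adjusted p = 1.21e-07) and -0.66 in TL4-2A cells (standard error 0.05, edgeR adjusted p = 1.31e-12). Directly compared, TC4-2A cells were above TL4-2A cells by 0.27 (edgeR adjusted p = 0.000263). A noncoding RNA on the opposite strand, DINOL, had at most 7 counts in any library.

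BTG2 encodes an antiproliferative protein that recruits the CCR4-NOT complex to shorten mRNA tails. It is at chr1:203305491-203309602 on the plus strand. Its levels were 53.4, 48.0 and 46.6 CPM in TC4-2A, 37.4, 39.8 and 41.9 CPM in TL4-2A and 65.5, 64.6 and 62.9 CPM in T-REx cells, with no overlap between any 2 lines. The log2 fold changes were -0.38 in TC4-2A (edgeR adjusted p = 1.62e-07) and -0.70 in TL4-2A cells (edgeR adjusted p = 1.36e-13), the largest decrease of the 9 genes in that line. TC4-2A cells were above TL4-2A cells by 0.31 (edgeR adjusted p = 1.15e-05).

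SESN1, on the minus strand at chr6:108984309-109094846, encodes sestrin 1, a leucine-binding protein that restrains the growth kinase complex mTORC1. It had 60.1, 57.2 and 58.7 CPM in TC4-2A, 44.9, 45.4 and 44.1 CPM in TL4-2A and 58.5, 60.9 and 57.5 CPM in T-REx cells. TC4-2A and T-REx libraries overlapped, and the 95% interval of their difference was -0.10 to 0.08 on the log2 scale (edgeR adjusted p = 0.919). TL4-2A cells were lower by a log2 fold change of -0.40 (standard error 0.05, edgeR adjusted p = 8.8e-09). TC4-2A cells were above TL4-2A cells by 0.39 (edgeR adjusted p = 1.46e-08). The 20 genes tested around SESN1 had a median of -0.06 in TC4-2A and of -0.16 in TL4-2A cells. Of the 20, 8 were lower and 0 higher in TL4-2A cells by edgeR. Over all genes tested 44.3% were called there, 21.9% as higher and 22.5% as lower. At an unadjusted p under 0.05, 2 of the 20 were higher, and DESeq2 gave 4 lower and 0 higher. The 8 became 4 without TL4-2A replicate 2 or T-REx replicate 3, and 5 without TL4-2A replicate 3. The part of these neighbours in the SESN1 value was not tested.

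MDM2, at chr12:68808177-68845544 on the plus strand, was the most abundant of the 9 genes per kilobase. It reached 46.6 CPM per kilobase in TC4-2A, 47.0 in TL4-2A and 46.1 in T-REx cells, the last of which is above 92.8% of the genes tested. Its levels were 338, 352 and 357 CPM in TC4-2A, 347, 352 and 356 CPM in TL4-2A and 345, 344 and 347 CPM in T-REx cells. The 95% intervals on the log2 scale were -0.04 to 0.07 for TC4-2A minus T-REx cells (edgeR adjusted p = 0.728) and -0.03 to 0.08 for TL4-2A minus T-REx cells (edgeR adjusted p = 0.443). For TC4-2A minus TL4-2A cells the interval was -0.07 to 0.04 (edgeR adjusted p = 0.774). The TL4-2A libraries lay just above the T-REx libraries without overlap, at a log2 fold change of 0.03. The gene CPM (carboxypeptidase M, not the unit), on the opposite strand, shares 3348 bases with MDM2, and it had log2 fold changes of -0.62 in TC4-2A and of -0.90 in TL4-2A cells. The strand setting of the counting is not given, so reads from shared stretches of the genes cannot be told apart.

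BBC3 encodes PUMA, a BH3-only protein that triggers apoptosis at mitochondria. It is on the minus strand at chr19:47220822-47232766 and was among the scarcer of the 9 genes. Its levels were 6.20, 7.17 and 6.50 CPM in TC4-2A, 5.63, 5.03 and 5.24 CPM in TL4-2A and 7.85, 7.83 and 6.52 CPM in T-REx cells. It fell in TL4-2A cells by 0.49 on the log2 scale (standard error 0.12, edgeR adjusted p = 0.00112), and in TC4-2A cells the value was -0.16 (95% interval -0.39 to 0.07, edgeR adjusted p = 0.309). TC4-2A cells were above TL4-2A cells by 0.33 (edgeR adjusted p = 0.0355). This last call was lost with DESeq2 (adjusted p = 0.138). It was also lost without TC4-2A replicate 2 (adjusted p = 0.153), TC4-2A replicate 3 (0.0520), TL4-2A replicate 2 (0.120) or TL4-2A replicate 3 (0.0799), all adjusted p from edgeR.

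TP53I3, at chr2:24077433-24085861 on the minus strand, encodes PIG3, an oxidoreductase related to quinone reductases. It had 7.64, 8.55 and 7.84 CPM in TC4-2A, 5.69, 7.17 and 7.01 CPM in TL4-2A and 8.91, 8.67 and 7.10 CPM in T-REx cells. Its log2 fold change was -0.04 in TC4-2A cells (95% interval -0.26 to 0.18, edgeR adjusted p = 0.841). In TL4-2A cells it fell by 0.31 (edgeR adjusted p = 0.0277), although 1 T-REx library lay within the range of the TL4-2A libraries. That call was lost with DESeq2 (adjusted p = 0.104) and without TL4-2A replicate 1 (0.168), T-REx replicate 1 (0.111) or T-REx replicate 2 (0.107), adjusted p from edgeR. The TC4-2A libraries lay above the TL4-2A libraries, by 0.27 with an interval of 0.04 to 0.51, and the adjusted p of 0.0652 from edgeR missed the threshold. FAM228B, on the opposite strand, overlaps the whole of TP53I3 and had log2 fold changes of -0.16 in TC4-2A and of -0.13 in TL4-2A cells. It had means of 8.43 CPM in TC4-2A, 8.62 CPM in TL4-2A and 9.44 CPM in T-REx cells. How reads of this overlap were divided is not given, so TP53I3 is uncertain too.

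FAS encodes a death receptor of the cell surface. It is on the plus strand at chr10:88953813-89029605. Its levels were 18.0, 15.1 and 16.8 CPM in TC4-2A, 16.0, 17.1 and 18.7 CPM in TL4-2A and 18.4, 19.4 and 19.9 CPM in T-REx cells. All TC4-2A libraries were below all T-REx libraries, while the highest TL4-2A library lay above the lowest T-REx library. In TC4-2A cells FAS fell by 0.21 on the log2 scale (standard error 0.07, edgeR adjusted p = 0.0241). The call was lost with DESeq2 (adjusted p = 0.115) and without TC4-2A replicate 2 (0.223), T-REx replicate 2 (0.0704) or T-REx replicate 3 (0.102), with adjusted p by edgeR. In TL4-2A cells the value was -0.16 (edgeR adjusted p = 0.0766), and it was called without TL4-2A replicate 3 (edgeR adjusted p = 0.0336). TC4-2A and TL4-2A cells differed by -0.05, with a 95% interval of -0.20 to 0.10. FAS shares 37527 bases of its span with ACTA2 on the opposite strand, which had log2 fold changes of -0.24 in TC4-2A and of -1.04 in TL4-2A cells. It shares 21341 bases with STAMBPL1 on its own strand, at -0.04 in TC4-2A and at -0.08 in TL4-2A cells. How reads of such overlaps were divided is not given, so FAS is uncertain.

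ZMAT3, at chr3:178960121-179072215 on the minus strand, encodes a zinc finger protein that binds AU-rich RNA. It had 49.7, 50.1 and 52.6 CPM in TC4-2A, 51.6, 50.2 and 47.8 CPM in TL4-2A and 55.6, 57.4 and 61.8 CPM in T-REx cells. All libraries of the derived lines were below all T-REx libraries. ZMAT3 fell by 0.20 in TC4-2A (edgeR adjusted p = 0.00173) and by 0.22 in TL4-2A cells (edgeR adjusted p = 0.000322), and the lines differed from each other by 0.03, with an interval of -0.08 to 0.13.

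Between TC4-2A and TL4-2A cells 5 of the 9 genes were called, 4 higher (CDKN1A, SESN1, BTG2 and BBC3) and 1 lower (RPRM), where 35.4% of all genes tested were called, 17.6% as higher and 17.8% as lower. The libraries did not overlap for 6 of the 9 genes, 5 higher and 1 lower, where 44.9% of all genes did not, 22.5% being higher and 22.4% lower. Without RPRM, 4 of the 8 genes were called, all as higher. The median of the 9 was 0.27, and 0.27 without RPRM, beside 0.00 over all genes tested.

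**Figure D3:**
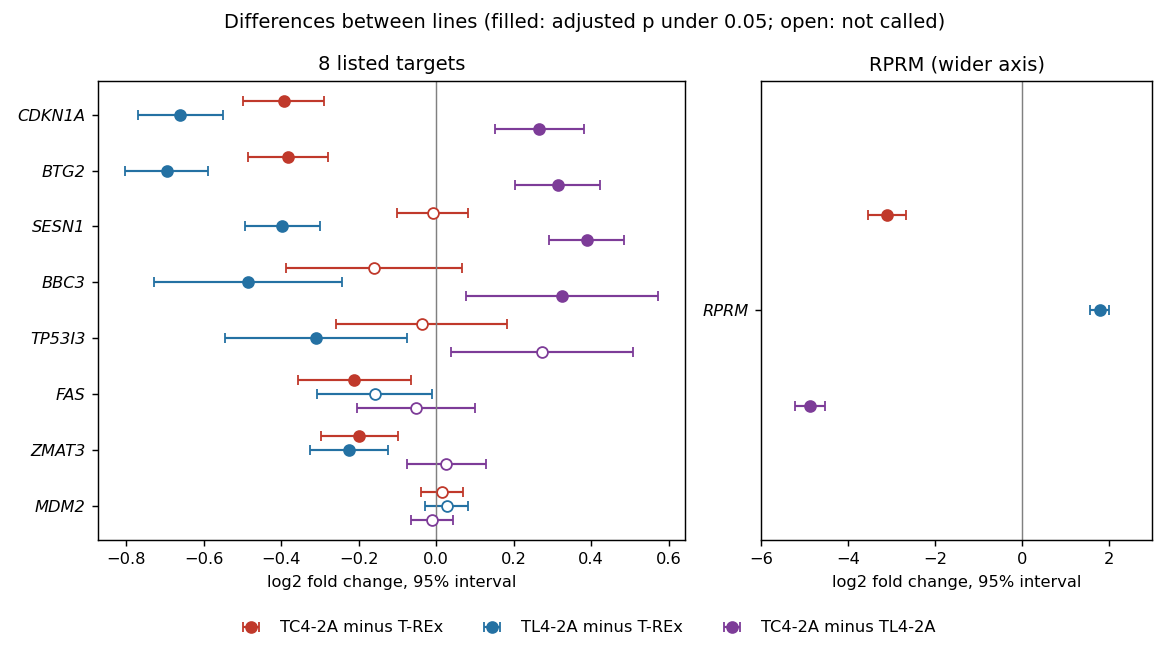
Log2 fold changes with 95% intervals from edgeR for the 3 comparisons, for 8 of the genes on the left and for RPRM on a wider axis on the right. Filled points passed an adjusted p of 0.05: CDKN1A, BTG2 and ZMAT3 fell in both derived lines. SESN1, BBC3 and TP53I3 fell in TL4-2A cells and FAS in TC4-2A cells. RPRM is at -3.10 in TC4-2A and at 1.78 in TL4-2A cells.

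Among themselves, the 7 genes other than RPRM and MDM2 had Pearson correlations of log2 CPM over the 9 libraries of 0.159 to 0.948, with a median of 0.693 over 21 pairs and the highest value between CDKN1A and BTG2. RPRM had values of -0.747 (with SESN1) to 0.33 (with FAS) with the other 8, and MDM2 had -0.532 (with BTG2) to 0.093 (with RPRM). These correlations are a description, since the libraries share lines. Of 14634 genes with a mean of at least 1 log2 CPM, those most like CDKN1A were MARCKS (r = 0.995), LPGAT1 (0.989) and HMMR (0.989). Those most like MDM2 were TCEA1P2 (r = 0.942), UBE2Q2P1 (0.909) and RANBP6 (0.906). Those most like RPRM were HNMT (r = 0.993), PRKG2 (0.992, on chromosome 4) and RECQL (0.991, on chromosome 12). HNMT, a histamine methyltransferase gene that is also on chromosome 2, had 1.08 ± 0.155 CPM in TC4-2A, 7.85 ± 0.847 CPM in TL4-2A and 4.39 ± 0.174 CPM in T-REx cells (SD, n = 3 each).

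Of 23 genes that regulate p53, 7 rose and 0 fell in TC4-2A cells and 11 rose and 4 fell in TL4-2A cells, with medians of 0.04 and 0.07. The 7 of 23 called in TC4-2A cells, all as higher, are close to the 28.8% of all genes tested that were called there. Called as higher were 14.2% of all genes tested, and as lower 14.6%. In TL4-2A cells 44.3% of all genes tested were called, 21.9% as higher and 22.5% as lower. For the 0 in TC4-2A cells, 0 were also lower at an unadjusted p under 0.05 and 0 with DESeq2. The 7 called in TC4-2A cells became 4 without TC4-2A replicate 3 or T-REx replicate 2. MDM4, which binds and inhibits p53 beside MDM2, had a value of 0.04 in TC4-2A cells (edgeR adjusted p = 0.481, or 0.0353 without TC4-2A replicate 1) and rose by 0.42 in TL4-2A cells (edgeR adjusted p = 7.6e-13). HIPK2, a kinase that phosphorylates p53, rose by 0.41 in TC4-2A (edgeR adjusted p = 4.34e-13) and by 0.10 in TL4-2A cells (edgeR adjusted p = 0.0162). The call of HIPK2 in TL4-2A cells was lost without TL4-2A replicate 1 (edgeR adjusted p = 0.0811), TL4-2A replicate 3 (0.0530) or T-REx replicate 3 (0.127). RPL11, a ribosomal protein that binds MDM2 when ribosome assembly is disturbed, rose by 0.08 in TC4-2A (edgeR adjusted p = 0.0363) and fell by 0.27 in TL4-2A cells (edgeR adjusted p = 5.58e-09). Its call in TC4-2A cells was lost without TC4-2A replicate 1 (edgeR adjusted p = 0.105), TC4-2A replicate 3 (0.122) or T-REx replicate 1 (0.139).

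Other known p53 targets were taken from 3 lists of 52 genes, of which 48 were tested. In TC4-2A cells 5 of the 48 rose and 17 fell, with a median of -0.06, where 14.2% of all genes tested rose and 14.6% fell. In TL4-2A cells 7 rose and 23 fell, with a median of -0.16, where 21.9% of all genes rose and 22.5% fell. Between TC4-2A and TL4-2A cells 14 were higher and 7 lower, with a median of 0.08, where 17.6% of all genes were higher and 17.8% lower. The median over all genes tested was 0.00 in each of the 3 comparisons.

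Of the targets in growth arrest and feedback, 15 of 16 were tested. In TC4-2A cells 0 rose and 7 fell, and in TL4-2A cells 1 rose and 5 fell, with medians of -0.14 and -0.14. Over all genes tested 14.2% rose and 14.6% fell in TC4-2A cells, and 21.9% rose and 22.5% fell in TL4-2A cells. For the 0 in TC4-2A cells, 0 were also higher at an unadjusted p under 0.05 and 0 with DESeq2, and the 7 became 4 without TC4-2A replicate 2. SFN, a 14-3-3 protein that holds mitotic kinases in the cytoplasm, was scarce and had 0.749, 0.712 and 0.967 CPM in TC4-2A, 0.182, 0.802 and 0.610 CPM in TL4-2A and 2.23, 2.83 and 2.40 CPM in T-REx cells. It fell by 1.62 in TC4-2A (edgeR adjusted p = 5.92e-06) and by 2.19 in TL4-2A cells (edgeR adjusted p = 1.26e-07). GADD45A, a stress sensor of growth arrest and DNA repair, fell by 0.32 in TC4-2A (edgeR adjusted p = 5.5e-06) and by 0.34 in TL4-2A cells (edgeR adjusted p = 1.81e-06). CCNG1, a cyclin in the feedback on p53, had -0.03 in TC4-2A cells (edgeR adjusted p = 0.557) and rose by 0.18 in TL4-2A cells (edgeR adjusted p = 1.61e-05).

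Of the targets in apoptosis, 14 of 17 were tested. In TC4-2A cells 1 rose and 6 fell, and in TL4-2A cells 4 rose and 6 fell, with medians of -0.05 and -0.06. Beside these, 14.2% of all genes tested rose and 14.6% fell in TC4-2A cells, and 21.9% rose and 22.5% fell in TL4-2A cells. PMAIP1, which encodes the BH3-only protein NOXA, fell by 0.27 in TC4-2A (edgeR adjusted p = 2.01e-07) and by 0.47 in TL4-2A cells (edgeR adjusted p = 3.23e-13). PERP, a membrane protein of cell death and adhesion, fell by 0.30 and 0.39 in TC4-2A and TL4-2A cells (edgeR adjusted p = 3.43e-07 and 9.13e-10). TNFRSF10D, a decoy receptor for the death ligand TRAIL, fell in TC4-2A cells by 0.44 (edgeR adjusted p = 2.18e-09) and rose in TL4-2A cells by 0.20 (edgeR adjusted p = 0.000391). Directly compared, TC4-2A cells were below TL4-2A cells in TNFRSF10D by a log2 fold change of -0.64 (edgeR adjusted p = 7.11e-14).

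Of the 19 targets in DNA repair and metabolism, all tested, 4 rose and 4 fell in TC4-2A cells, and 2 rose and 12 fell in TL4-2A cells. Over all genes tested 14.2% rose and 14.6% fell in TC4-2A cells, and 21.9% rose and 22.5% fell in TL4-2A cells. The medians of the 19 targets were -0.04 and -0.25. Between TC4-2A and TL4-2A cells 11 of them were higher and 1 lower, with a median of 0.21. There 17.6% of all genes tested were higher and 17.8% lower. CPT1C, a carnitine palmitoyltransferase of low abundance, had 2.43 ± 0.347 CPM in TC4-2A, 1.30 ± 0.387 CPM in TL4-2A and 5.34 ± 0.125 CPM in T-REx cells (SD, n = 3 each). It fell by 1.12 in TC4-2A (edgeR adjusted p = 6.18e-07) and fell by 2.05 in TL4-2A cells (edgeR adjusted p = 2.44e-11). SLC12A4, a potassium chloride cotransporter, fell by 0.25 in TC4-2A (edgeR adjusted p = 5.48e-05) and by 1.05 in TL4-2A cells (edgeR adjusted p = 8.64e-19). LPIN1, a phosphatidate phosphatase, had -0.13 in TC4-2A cells (edgeR adjusted p = 0.0588) and fell by 0.81 in TL4-2A cells (edgeR adjusted p = 4.35e-15). LPIN1 was called in TC4-2A cells without TL4-2A replicate 1 (edgeR adjusted p = 0.0376) or TL4-2A replicate 3 (0.0323).

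**Figure D4:**
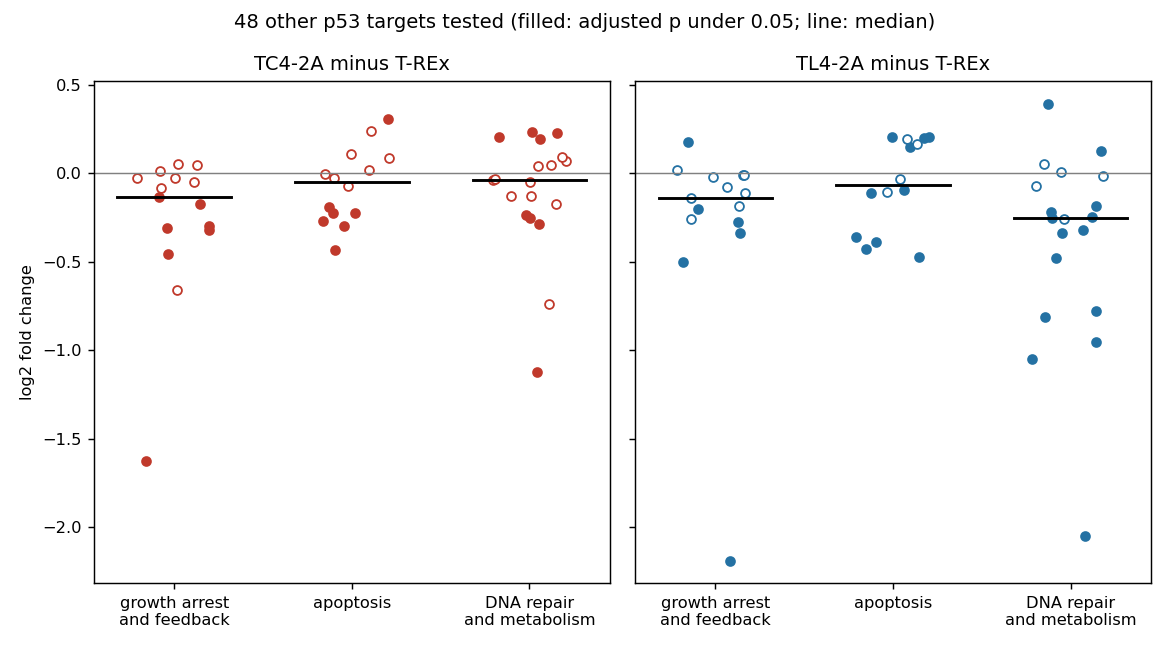
Log2 fold change of each of the 48 other p53 targets tested, in 3 lists, for TC4-2A minus T-REx (left) and TL4-2A minus T-REx cells (right). Filled points passed an adjusted p of 0.05 and the black line is the median of a list: the list of DNA repair and metabolism has a median of -0.04 in TC4-2A and of -0.25 in TL4-2A cells.

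Cell cycle partners of p21 were followed through 13 genes, which include CDKN1B and CDKN1C, inhibitors of the same family as p21. In TC4-2A cells 1 rose and 3 fell, and in TL4-2A cells 2 rose and 7 fell. The 4 of 13 called in TC4-2A cells are close to the 28.8% of all genes called there, and the share of all genes called in TL4-2A cells was 44.3%. The 4 became 2 without TC4-2A replicate 1 or T-REx replicate 2. CCND2, a D-type cyclin, had 0.05 in TC4-2A cells (edgeR adjusted p = 0.234) and rose by 0.53 in TL4-2A cells (edgeR adjusted p = 9.46e-18). CCND3, another D-type cyclin, had 0.06 in TC4-2A cells and fell by 0.31 in TL4-2A cells (edgeR adjusted p = 3.19e-06). PCNA, the DNA clamp that p21 binds, had 0.03 in TC4-2A cells and fell by 0.22 in TL4-2A cells (edgeR adjusted p = 3.19e-07).

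Partners of FAS and PUMA in the death receptor and BCL2 families moved both ways: 5 rose and 4 fell of 15 tested in TC4-2A cells, and 6 rose and 4 fell in TL4-2A cells, where 28.8% and 44.3% of all genes were called. CASP8, the caspase that FAS recruits, rose by 0.21 in TC4-2A (edgeR adjusted p = 0.00121) and by 0.56 in TL4-2A cells (edgeR adjusted p = 3.34e-12). CFLAR, its inhibitor, rose by 0.19 in TC4-2A (edgeR adjusted p = 0.00155) and by 0.58 in TL4-2A cells (edgeR adjusted p = 7.44e-13). CASP10, a caspase related to CASP8, had -0.21 in TC4-2A cells (edgeR adjusted p = 0.111, or 0.0318 without T-REx replicate 3) and rose by 0.68 in TL4-2A cells (edgeR adjusted p = 6.98e-08). CFLAR, CASP10 and CASP8 all lie within chr2:201116154-201361836. The part of this shared position in their values was not tested. FASLG, the ligand of FAS, had 0 counts in the 9 libraries.

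Of 16 cell cycle genes known to be repressed downstream of p53 and p21, 2 rose and 0 fell in TC4-2A cells, and 6 rose and 3 fell in TL4-2A cells, with medians of -0.04 and 0.02, where 28.8% and 44.3% of all genes were called. For the 0 in TC4-2A cells, 4 were lower at an unadjusted p under 0.05 and 0 with DESeq2, and 4 in all were called without T-REx replicate 1. The 9 called in TL4-2A cells became 4 without TL4-2A replicate 1. FOXM1, a transcription factor of mitotic genes, had 0.02 in TC4-2A cells (edgeR adjusted p = 0.631) and rose by 0.39 in TL4-2A cells (edgeR adjusted p = 1.85e-13). It lies at chr12:2857680-2877174, and CCND2, which also rose in TL4-2A cells, at chr12:4269771-4305353. The part of this nearness in their values was not tested. MCM5, a subunit of the replicative helicase, rose by 0.23 in TC4-2A (edgeR adjusted p = 1.22e-07) and by 0.34 in TL4-2A cells (edgeR adjusted p = 9.73e-12). CKS1B, a subunit of cyclin-dependent kinase complexes, had -0.11 in TC4-2A cells (edgeR adjusted p = 0.109, or 0.0288 without T-REx replicate 1) and fell by 0.35 in TL4-2A cells (edgeR adjusted p = 9.52e-07).

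Family members of the 9 genes were also followed, 10 of 12 of them tested. In TC4-2A cells 2 rose and 2 fell, and in TL4-2A cells 2 rose and 3 fell, where 28.8% and 44.3% of all genes were called. SESN3, a sestrin like SESN1, fell by 0.19 in TC4-2A (edgeR adjusted p = 1.69e-06) and rose by 0.17 in TL4-2A cells (edgeR adjusted p = 8e-06). BTG1, an antiproliferative relative of BTG2, fell by 0.32 in TC4-2A (edgeR adjusted p = 1.58e-06) and by 0.40 in TL4-2A cells (edgeR adjusted p = 1.32e-08). BTG3, another relative, had 0.12 in TC4-2A cells (edgeR adjusted p = 0.0764, or 0.0423 without TC4-2A replicate 3 and 0.0181 without T-REx replicate 3) and fell by 0.39 in TL4-2A cells (edgeR adjusted p = 2.43e-07).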

How the data were processed

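The authors deposited raw counts per gene of 9 paired-end, strand-specific libraries, 3 per cell line. HISAT2 mapped the reads to GRCh38 and featureCounts assigned them to genes of Gencode v33, with versions and strand options not given in the sources used here. Tables of the authors' own DESeq2 comparisons (fold changes, standard errors, p-values) were not used. Of the count table, 60648 lines were used and 3 damaged lines left out. Gencode v44 gave positions, canonical transcripts and names, and held 19433 of 19473 genes tested. Total counts, 16561680 to 21491977 per library, set the precision.

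edgeR 4.0.16 (R 4.3.3) was run with its expression filter, TMM scaling and 1 quasi-likelihood model of all 9 libraries with a term per line, 2-sided, with Benjamini-Hochberg adjustment over all genes tested and a call at an adjusted p under 0.05. The replicate numbers did not pair the libraries. Alternatives were DESeq2 1.42.0, RLE scaling, no filter, at least 10 counts in every library, only the 2 lines compared, a replicate block, and each library left out. They were extended to the lists after the data were seen. Python 3.11.15, pandas 2.3.3 and matplotlib 3.10.9 made the tables and plots.

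The 9 genes and the lists were chosen with earlier results of these data known. By the naming rule, all 9 genes were named, with the 3 genes of smallest p in each list, the 3 genes most like RPRM, CDKN1A and MDM2, and the nearest neighbours of RPRM. Some genes were taken out of the lists and are not reported here. Amino acid sequences were not used here.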

Additional observations from a re-analysis of the deposited data

Results flagged for a closer look

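RPRM, which was listed for its opposite movement in the lines, had a difference between the effects of the lines of -4.88 on the log2 scale, given as a description. Of the 8 genes other than RPRM, 4 passed the direct test of that difference (TC4-2A minus TL4-2A, edgeR, 3 libraries each), where 35.4% of all genes tested were called. These 4 fell in TL4-2A cells, while in TC4-2A cells CDKN1A and BTG2 fell and SESN1 and BBC3 were not called. TC4-2A cells were the higher line, with a difference of 0.39 for SESN1, 0.33 for BBC3, 0.31 for BTG2 and 0.27 for CDKN1A. Since both effects are measured against the same T-REx libraries, each difference is that between the TC4-2A and TL4-2A libraries alone.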

How the results depend on the processing

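Each of the 27 log2 fold changes of the 9 genes was recomputed under up to 15 alternatives. Of the 27, 17 kept their sign and call in all of them and 10 did not. RPRM gave no value with at least 10 counts in every library, since a TC4-2A library had 8. Leaving out libraries gave 4 to 5 of the 9 genes called for TC4-2A minus T-REx, 6 to 8 for TL4-2A minus T-REx and 4 to 5 for TC4-2A minus TL4-2A cells. With DESeq2 the numbers were 4, 6 and 4, without the calls of FAS, TP53I3 and BBC3 named above. None of these counts, nor that over all genes, moved by over 1.5 times. The same alternatives for the genes of the lists were added after the data were seen. None turned a sign in the comparisons given, and the calls they changed are named above, save that a model of the 2 lines alone also called LPIN1 (edgeR adjusted p = 0.019) and BTG3 (0.0489) in TC4-2A cells.

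A block for the replicate number gave 5, 7 and 5 of the 9 genes called for TC4-2A minus T-REx, TL4-2A minus T-REx and TC4-2A minus TL4-2A cells, and 5703, 8656 and 6894 of all genes, beside 5607, 8633 and 6884 without it. Deviations of same-numbered libraries from their line's mean had correlations of -0.029 to 0.03, so the numbers do not pair the libraries. Of the genes named, the block added the call of LPIN1 in TC4-2A cells (edgeR adjusted p = 0.0367) and changed no other call.

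The sign turned only for differences near 0 that were not called. For TC4-2A minus T-REx cells, leaving out 1 library gave -0.0014 (without TC4-2A replicate 3) to 0.0365 for MDM2, -0.0271 to 0.0158 for SESN1 (above 0 without TC4-2A replicate 2, at 0.0085, or T-REx replicate 2) and -0.1295 to 0.0187 for TP53I3 (above 0 without T-REx replicate 1, or replicate 2, at 0.0043). For TC4-2A minus TL4-2A cells it gave -0.0269 to 0.0108 for MDM2 (above 0 without TC4-2A replicate 1, and at 0.0022 with no expression filter), -0.1148 to 0.0154 for FAS (above 0 without TC4-2A replicate 2, or TL4-2A replicate 3, at 0.0043) and -0.0029 (without TL4-2A replicate 3) to 0.0526 for ZMAT3. The cause was not tested. RPRM had 8 to 16 counts per library in TC4-2A cells, and its fold change there ranged from -3.36 to -2.84 over the alternatives.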
